A study of Mus musculus with 4 samples.

Results

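Pax5, Ebf1, Cd79a, Cd79b, Ms4a1, Blk, Cr2, Fcrla and Cd22 are genes that mark B lymphocytes, and they are described here across libraries made from mouse CD4+ T cells. The 9 genes were taken by symbol from a table of 34745 genes, and each symbol stood on 1 row. They were selected on their measured levels, for the signal of B cell transcripts in the naive, Th0 and Th17 libraries, so those levels are given as a description and carry no test. The series holds 4 libraries of splenic CD4+ T cells from C57BL/6 mice of wild type genotype, with 1 library in each group. Cells of the naive group were selected directly from the spleen. Th0 cells were made from them by 3 days with antibodies to CD3 and CD28, and Th17 and Treg cells by 3 days in their own differentiation conditions. Animal age, pooling, the selection method and the cytokines are not stated in the labels, and no altered allele is named in any group.

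B cells recognise antigen through a surface immunoglobulin that is held in a complex with the Cd79a and Cd79b proteins, whose cytoplasmic tails carry the signal inward through kinases of the Src family such as Blk. The transcription factors Ebf1 and Pax5 set up and maintain the B cell programme, and Cd79a is a classical target of both. The spleen is rich in B cells, and mature T cells are not known for expressing Pax5, Cd79a or Cd79b.

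The table totals lay between 10256627 and 12414372 counts, and 11686 to 13526 genes per library had at least 10 counts. Levels are CPM, the read count scaled to the library size after TMM adjustment, and 1 count was worth 0.0762 to 0.114 CPM. Intervals in brackets are 95% counting intervals. They cover counting error only, because there is 1 library per group and reads without molecular identifiers are not independent molecules. The labels were read against lineage genes. Cd4 stood at 698 to 1199 CPM in all 4 libraries, and Il17a at 90.4 CPM in Th17 and 14.7 CPM in Treg, with 3 counts in naive and 0 in Th0. Foxp3 went against a naive label, with 129 CPM in naive and 51.5 CPM in Treg, so naive means the library labelled naive throughout.

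All 9 genes were highest in the library labelled naive and lowest in Treg. The naive levels ranged from 25.2 to 165 CPM and the Treg levels from 0.271 to 5.05 CPM, on a scale that does not allow for gene length. Summed over the 9 genes, the reads came to 874 CPM in the naive library (858 to 891), 89.5 CPM in Th0 (83.4 to 96.0), 83.7 CPM in Th17 (78.9 to 88.9) and 21.6 CPM in the Treg library (18.9 to 24.5). The sum was thus 9.77-fold lower in Th0 than in naive (9.08 to 10.5), 10.4-fold lower in Th17 (9.81 to 11.1) and 40.6-fold lower in Treg (35.7 to 46.3). Th0 and Th17 were close, with a Th17 over Th0 ratio of 0.936 (0.853 to 1.03), and their order depended on the scaling, since with library totals the sums were 76.1 and 88.5 CPM. Th17 stood 3.89-fold above Treg (3.38 to 4.49). Set against the summed reads of 14 T cell identity genes in the same library, which needs no scaling between libraries, the 9 genes gave 175 reads per 1000 T cell reads in the naive library, 16.4 in Th0, 16.2 in Th17 and 3.89 in the Treg library. In bulk RNA, fewer B cells and less of these RNAs per cell cannot be told apart.

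**Figure D1:**
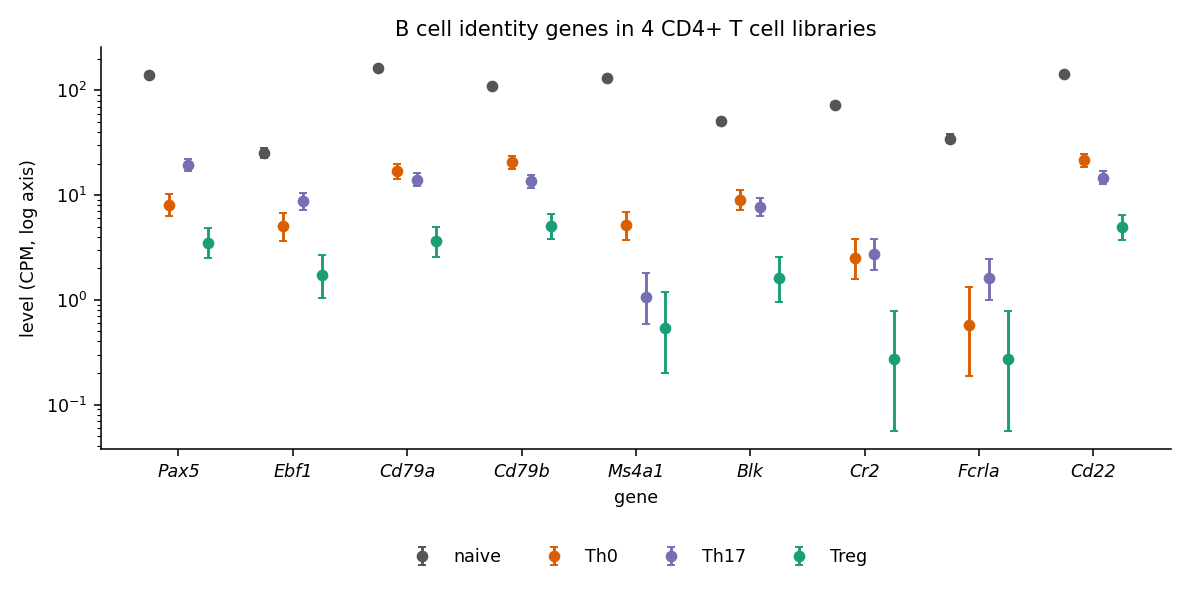
Level of each of the 9 B cell identity genes (CPM, log axis) in the naive, Th0, Th17 and Treg libraries, with 1 point per library and bars for the 95% Poisson counting interval. For every gene the naive point is the highest and the Treg point the lowest, while Th0 and Th17 change places: Pax5 and Ebf1 are higher in Th17, and Ms4a1 is higher in Th0.

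Both transcription factors stood higher in Th17 than in Th0, by ratios whose intervals excluded 1. Pax5, which commits lymphoid progenitors to the B lineage (chromosome 4, 44524757 to 44710487, minus strand, GRCm38), stood at 140.3 CPM in the naive library, and at 8.13 in Th0, 19.4 in Th17 and 3.52 in the Treg library. Its 4 levels were all separated, since neighbouring libraries in that order differed by ratios whose intervals excluded 1. Th17 was 2.39-fold above Th0 (1.83 to 3.16) and 5.53-fold above Treg (3.93 to 7.95). Ebf1, which acts before and together with Pax5 (chromosome 11, 44617317 to 45008091, plus strand), stood at 25.2 CPM in the naive library, and at 5.04 in Th0, 8.76 in Th17 and 1.71 in the Treg library. It showed the same order of libraries as Pax5, again with no neighbouring pair whose interval included 1. Ebf1 kept the highest percentage of its naive level among the 9 genes in each cultured library, with 34.7% in Th17 and 6.79% in Treg, where Pax5 kept 13.9% and 2.51%. Pax5 is overlapped on the opposite strand by 2 annotated genes, 5730488B01Rik and Gm12462, and both had 0 counts in all 4 libraries.

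The signalling chains of the B cell receptor were the most abundant of the 9 genes per length. Cd79a (chromosome 7, 24897381 to 24902197, plus strand) stood at 165 CPM in the naive library, and at 16.9 in Th0, 14.1 in Th17 and 3.61 in the Treg library. Its partner Cd79b (chromosome 11, 106311341 to 106314762, minus strand) stood at 110.2 CPM in the naive library, and at 20.6 in Th0, 13.6 in Th17 and 5.05 in the Treg library. For Cd79a the Th0 and Th17 levels did not differ beyond counting error, with a Th17 over Th0 ratio of 0.832 (0.667 to 1.04) that became 1.03 under scaling to library totals. Cd79b was 1.52-fold lower in Th17 than in Th0 (1.23 to 1.88), and its Th17 over Th0 ratio was 0.818 with library totals. Blk, a kinase downstream of the receptor (chromosome 14, 63372837 to 63417187, minus strand), stood at 51.0 CPM in the naive library, and at 9.04 in Th0, 7.77 in Th17 and 1.62 in the Treg library. Its Th0 and Th17 levels lay within counting error of each other, at a ratio of 0.860 (0.634 to 1.17) or 1.07 with library totals.

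Levels of different genes can be set side by side only per length, for which the authors' FPKM (reads scaled to gene length and table total) were used. By FPKM Cd79a, Cd79b and Blk held the 3 highest ranks among the 9, in that order, in every library, with 117, 53.9 and 21.2 FPKM in naive and 2.68, 2.59 and 0.709 FPKM in Treg. In naive, Cd79a lay above 98.5% of all genes with at least 1 count, and in Treg above 45.2%. Cd79a and Cd79b pair as a heterodimer in the receptor, and the ratio of their FPKM was 2.16 in the naive library (2.02 to 2.32), 1.19 in Th0 (0.949 to 1.48), 1.50 in Th17 (1.22 to 1.86) and 1.03 in the Treg library (0.670 to 1.58). The naive ratio was the highest, and its interval did not overlap those of the cultured libraries. The Pax5 to Ebf1 ratio was likewise highest in naive, at 6.64 (5.88 to 7.52), against 1.93 in Th0 (1.31 to 2.87), 2.65 in Th17 (2.12 to 3.33) and 2.45 in Treg (1.38 to 4.49).

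Because the 9 genes were high together in naive, their promoters were read for sequence that B lineage factors are known to bind. The RefSeq promoter table (GRCm38.p6) held 6 of the 9 genes, in 7 windows, and the 250 bases before each RefSeq transcription start were searched on both strands. The 2 stretches shown are those with letters of the Ebf1 site, which are in capitals and written 5′ to 3′ on the strand of the gene, at chr7:24897297-24897376 (plus strand) for Cd79a and chr7:30879058-30879087 (minus strand) for Cd22.
Cd79a: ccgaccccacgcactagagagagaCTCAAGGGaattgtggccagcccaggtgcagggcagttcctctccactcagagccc
Cd22: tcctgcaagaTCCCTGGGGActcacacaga
The Cd22 stretch held the full Ebf1 palindrome 49 to 40 bases before the start, and with it the shorter core CCCNNGGG. The palindrome was found in 0.779% of the 32851 windows of the table and the core in 11.8%, and in both cases Cd22 was the only match among the 7 windows. The Cd79a letters, CTCNNGGG at 176 to 169 bases before the start, are a variant that was added to the search after the sequences had been seen, and 20.7% of windows held it. The ETS core GGAAGT stood in windows of Cd79a, Cr2 and Ebf1 (19.7% of all windows), and the octamer ATGCAAAT in none of the 7 (1.60%). Starts are those of RefSeq, and 5 of the 7 windows, which run past the start, overlap annotated exons of their gene. For Fcrla and Cr2 those exons lie outside the 250 bases searched. The Cd22 stretch lies inside Cd22 as its extent is given below, in a window with Cd22 exons, and the Cd79a match to the ETS core lies within an exon of Cd79a, while the printed Cd79a stretch lies before the gene start given above. These matches describe the sequence and say nothing of binding in these cells.

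The surface receptors fell further in culture than the receptor chains, with Cd22 as the exception. Cd22, an inhibitory lectin of the B cell surface (chromosome 7, 30865402 to 30880342, minus strand), stood at 144 CPM in the naive library, and at 21.5 in Th0, 14.7 in Th17 and 4.96 in the Treg library. It had the order of Cd79b, and the Cd22 to Cd79b ratio of FPKM was 0.263 in the naive library (0.245 to 0.283), 0.211 in Th0 (0.171 to 0.260), 0.219 in Th17 (0.178 to 0.270) and 0.198 in the Treg library (0.134 to 0.293). Gm29439, which overlaps Cd22 on the opposite strand, had 3, 0, 1 and 0 counts in naive, Th0, Th17 and Treg. Ms4a1, which encodes the surface protein CD20 (chromosome 19, 11249675 to 11266241, minus strand), stood at 131 CPM in the naive library, and at 5.15 in Th0, 1.07 in Th17 and 0.541 in the Treg library. It held 3.92%, 0.812% and 0.412% of its naive level in Th0, Th17 and Treg. Th0 was 4.83-fold above Th17 (2.60 to 9.52), and Th17 and Treg, with 14 and 6 reads, did not differ beyond counting error.

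Cr2, the complement receptor that lowers the threshold of B cell activation (chromosome 1, 195136811 to 195176716, minus strand), stood at 72.9 CPM in the naive library, and at 2.52 in Th0, 2.74 in Th17 and 0.271 in the Treg library. Th0 and Th17 did not differ beyond counting error (ratio 1.09, 0.624 to 1.94). Fcrla, an Fc receptor-like protein that stays inside B cells (chromosome 1, 170917576 to 170927583, minus strand), stood at 34.5 CPM in the naive library, and at 0.572 in Th0, 1.60 in Th17 and 0.271 in the Treg library. The cultured levels of Fcrla rested on 5, 21 and 3 reads, and its Th0 and Treg levels did not differ beyond counting error. Cr2 also rested on 3 reads in Treg, so its 9.31-fold distance from Th0 had an interval of 2.80 to 48.6.

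Between libraries, a gene with at least 10 counts in 1 of the pair was called higher or lower when CPM + 1 differed by at least 2-fold and the counting interval of the ratio excluded 1. Against naive, all 9 genes were called lower in Th0, in Th17 and in Treg, where 27.2%, 17.7% and 16.9% of all tested genes were called lower. The median log2 ratio of the 9 genes was -3.21 for Th0 over naive, -3.20 for Th17 over naive and -4.81 for Treg over naive, beside medians of -0.13, -0.01 and -0.02 over all tested genes. These 3 comparisons share the naive library, and the genes were chosen for their signal in it, so nothing is read from the counts.

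**Figure D2:**
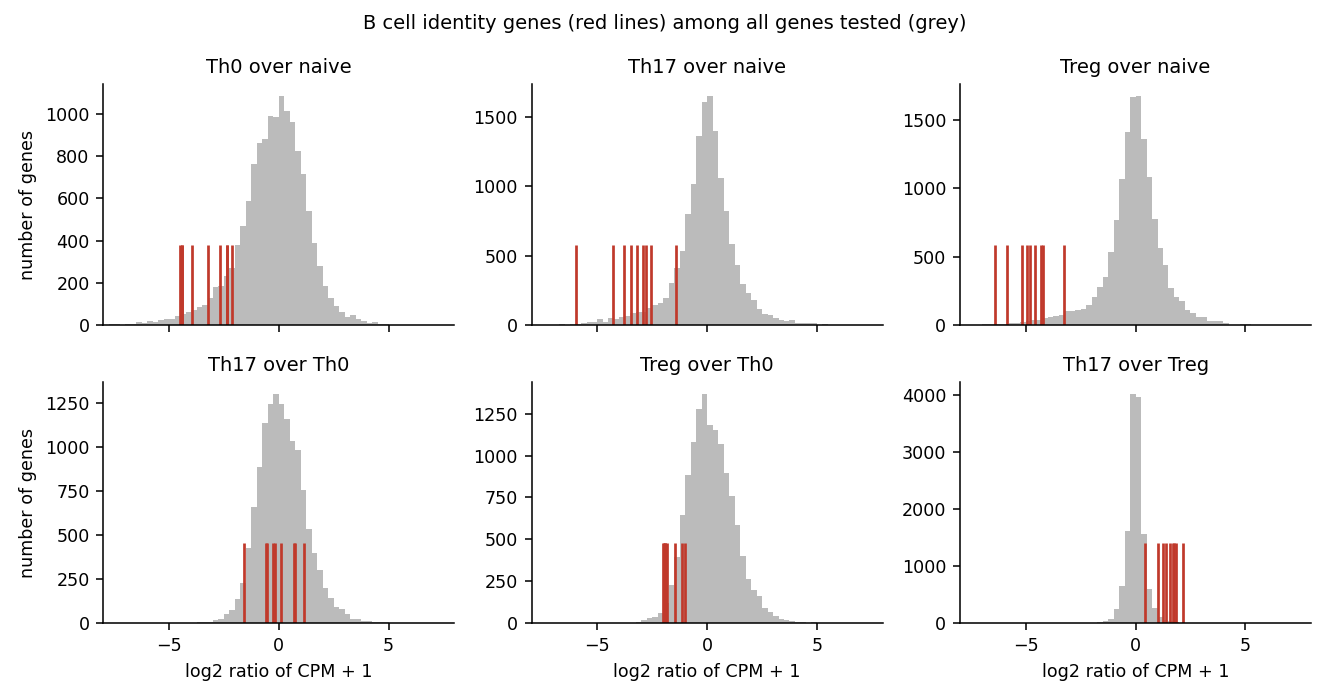
Distribution of the log2 ratio of CPM + 1 over all tested genes (grey, number of genes per bin) in each of the 6 library comparisons, with the tested B cell identity genes as red lines. The red lines lie left of the bulk in the 3 comparisons with naive and in Treg over Th0, spread over the bulk in Th17 over Th0, and lie right of it in Th17 over Treg.

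Between Th17 and Th0 the 9 genes did not all go in 1 direction, and few were called. For Th17 over Th0, 1 gene was called higher (Pax5), 1 lower (Ms4a1) and 7 met neither rule, where 20.1% of all tested genes were called higher and 12.4% lower. Both counts are near those shares, so nothing is read from them. The median log2 ratio was -0.20, beside 0.09 over all tested genes. Below the size rule, Ebf1 was 1.74-fold (1.22 to 2.52) and Fcrla 2.80-fold (1.03 to 9.49) higher in Th17 by ratios whose intervals excluded 1. Cd79b and Cd22 were lower in Th17 in the same sense, the latter by 1.46-fold (1.19 to 1.80). Under library totals the Cd79b and Cd22 ratios of Th17 over Th0 became 0.818 and 0.849, and their intervals no longer excluded 1. The same held for Fcrla by DESeq2 size factors, at a ratio of 2.69.

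For Treg over Th0, 8 of the 8 tested genes were called lower, where 12.0% of all tested genes were called lower and 20.2% higher, and Fcrla had too few reads to be tested. The median log2 ratio was -1.88, beside 0.08 over all genes. The Th0 signal was part of how the genes were chosen and the Treg signal was not, so nothing is read from the count. Cd79a was 4.70-fold lower (3.29 to 6.84), Cd22 4.34-fold (3.20 to 5.97), Cd79b 4.08-fold (3.01 to 5.61) and Pax5 2.31-fold (1.54 to 3.51). The Pax5 call was lost under scaling to library totals and by upper quartile, and the Ebf1 call under library totals, as given with the processing alternatives.

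In the comparison of the differentiation cultures, 8 of 9 genes were called higher in Th17 than in Treg and 0 lower, where 1.91% of all tested genes were called higher and 1.24% lower. The median log2 ratio was 1.56, beside 0.00 over all tested genes. With a pseudocount of 5 CPM the calls of Cd79b, Blk, Cr2, Fcrla and Cd22 were lost, and that of Fcrla also when the libraries were thinned to 1 depth. The gene that met neither rule was Ms4a1, at a ratio of 1.97 (0.712 to 6.26). Ebf1 was 5.12-fold higher (3.13 to 8.80), Blk 4.79-fold (2.88 to 8.40), Cd79a 3.91-fold (2.76 to 5.65) and Cd79b 2.69-fold (1.98 to 3.70). The Th17 signal was part of how the genes were chosen, and the comparison shares its libraries with those above.

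**Figure D3:**
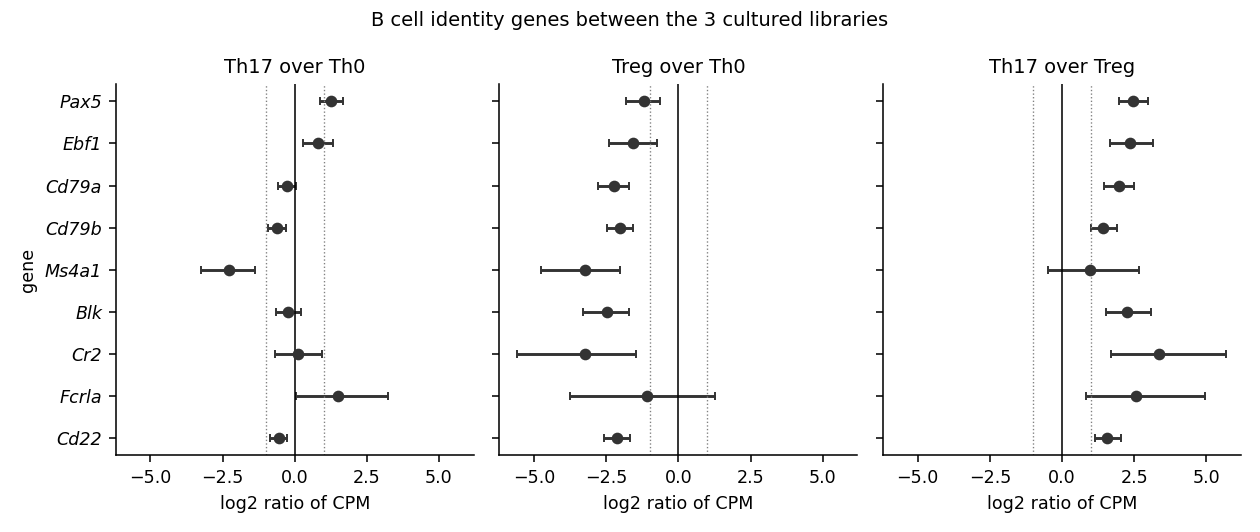
Log2 ratio of CPM, without a pseudocount, of each B cell identity gene between the cultured libraries, with 95% exact conditional counting intervals, a solid line at equality and dotted lines at a 2-fold difference. Th17 over Th0 runs from Ms4a1 (ratio 0.207) to Fcrla (2.80), Treg over Th0 lies below equality for all but Fcrla, whose interval includes it, and Th17 over Treg lies above equality for all but Ms4a1, whose interval includes it.

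The share of each gene in the summed reads of the 9, which does not depend on the scaling between libraries, changed from library to library. These sums were 10707 reads in the naive library, 782 in Th0, 1099 in Th17 and 239 in the Treg library. Cd79a took a like share of the reads in all 4, with 18.9% in the naive library (18.1 to 19.6), 18.9% in Th0 (16.2 to 21.9), 16.8% in Th17 (14.7 to 19.2) and 16.7% in the Treg library (12.2 to 22.1). By summed FPKM its share was highest in naive, at 45.9%, against 39.6% in Th0, 40.1% in Th17 and 37.2% in Treg. Of the reads, Ms4a1 took 15.0% in the naive library (14.3 to 15.7), 5.75% in Th0 (4.23 to 7.62), 1.27% in Th17 (0.698 to 2.13) and 2.51% in the Treg library (0.927 to 5.38). Its naive share lay above the intervals of all cultured libraries, and its Th0 share above that of Th17.

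Pax5 took 16.0% in the naive library (15.4 to 16.8), 9.08% in Th0 (7.16 to 11.3), 23.2% in Th17 (20.7 to 25.8) and 16.3% in the Treg library (11.9 to 21.6). Th0 was therefore lowest in Pax5 share, with an interval that overlapped none of the others. Th17 was highest, but its interval overlapped that of Treg. Ebf1 took 2.89% in the naive library, 5.63% in Th0, 10.5% in Th17 and 7.95% in the Treg library, and Cr2 8.34%, 2.81%, 3.28% and 1.26%. Cd79b was highest in Th0 and Treg at 23.0% and 23.4%, against 12.6% in naive and 16.2% in Th17, and Cd22 followed it with 24.0% and 23.0%, against 16.4% and 17.6%.

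**Figure D4:**
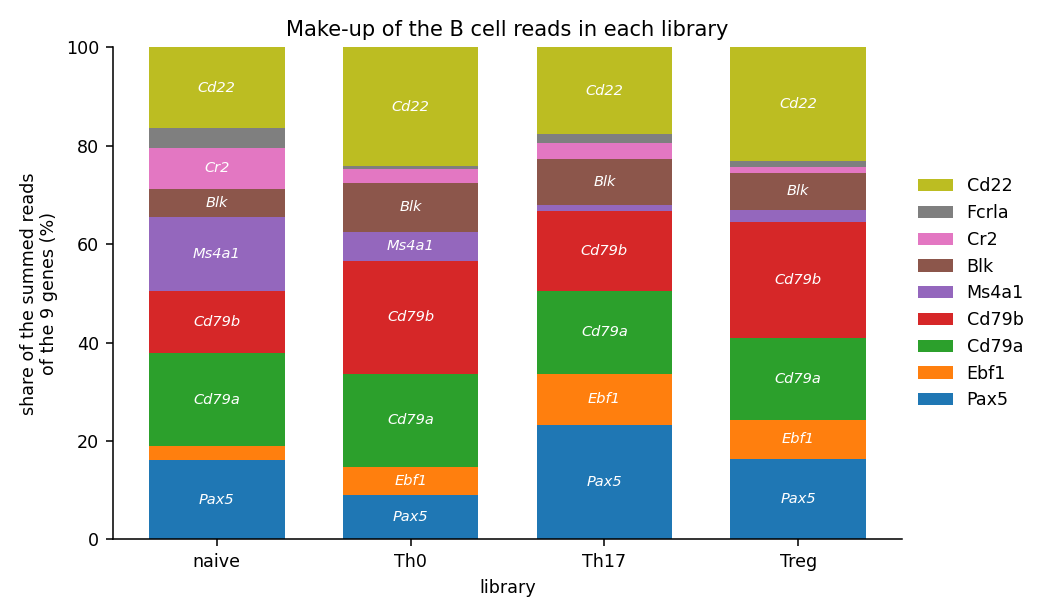
Share of each B cell identity gene in the summed reads of the 9 (percent, bars stacked to 100) in the naive, Th0, Th17 and Treg libraries. The Cd79a band keeps its width at 16.7% to 18.9%, the Ms4a1 band shrinks from 15.0% in naive to 1.27% in Th17, and the Ebf1 band widens from 2.89% in naive to 10.5% in Th17.

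Other genes of B cell identity were read from a list of 19, which holds surface receptors, adaptors, transcription factors and immunoglobulin constant genes. Compared with naive, 16 of 19 were called lower in Th0 and 18 of 19 in both Th17 and Treg, where 27.2%, 17.7% and 16.9% of all tested genes were called lower, and none of the 19 was called higher. For Th17 over Treg, 6 of 17 tested were called higher and 0 lower (median log2 ratio 0.75), where 1.91% of all tested genes were called higher. The higher genes included Bank1, Blnk, Pou2af1 and Igkc. Blnk, an adaptor of B cell receptor signalling, stood at 45.7 CPM in the naive library, and at 7.55 in Th0, 4.57 in Th17 and 1.62 in the Treg library. For Treg over Th0, 11 of 16 were called lower and 2 higher (median -1.39), where 12.0% of all tested genes were called lower and 20.2% higher. For Th17 over Th0, 7 of 17 were called lower and 1 higher (median -0.72), where 12.4% of all tested genes were called lower and 20.1% higher. The lower genes included Pou2af1 (3.70-fold), Ly6d (8.07-fold) and Fcer2a (8.18-fold), the IgE receptor of mature B cells.

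The genes that went the other way in culture were Cd72, with 41.0 CPM in the naive library, 13.9 in Th0, 25.3 in Th17 and 41.6 in the Treg library, and Fcgr2b, with 45.6, 1.95, 9.91 and 4.96 CPM. Both encode inhibitory receptors of B cells, and Fcgr2b is also expressed by myeloid cells. Of the immunoglobulin genes, Ighm stood at 2132 CPM in the naive library, and at 325 in Th0, 141 in Th17 and 83.6 in the Treg library, and Igkc 797, 39.6, 9.30 and 2.34 CPM. Both therefore stood higher in Th0 than in Th17, as Cd79b, Ms4a1 and Cd22 did, where Pax5 and Ebf1 stood lower.

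Genes of B cell receptor signalling, some of which T cells share, were read from a list of 22. Of these, 12 were called lower than naive in each of Th0, Th17 and Treg, where 27.2%, 17.7% and 16.9% of all tested genes were called lower. Among the 12 was Lyn, the Src kinase that acts beside Blk, at 225, 12.1, 8.08 and 4.15 CPM in the naive, Th0, Th17 and Treg libraries. Malt1 and Vav2 were called higher in Th0 than in naive, and both also act in T cell receptor signalling. For Th17 over Treg 6 of 22 were called higher and 0 lower (median 0.25), including the kinase Syk (2.96-fold). Over all tested genes, 1.91% were called higher and 1.24% lower in that comparison. Of 14 transcription factors of the B lineage, 2 were called higher in Th17 than in Treg and 0 lower (median 0.22), with Bcl11a at 65.7, 2.40, 4.27 and 0.631 CPM and Pou2af1 at 90.1, 55.3, 14.9 and 5.05 CPM in the naive, Th0, Th17 and Treg libraries. Irf4, which activated T cells also express, had 92.8, 83.6, 995 and 685 CPM.

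Stages of B cell life were read from 3 further lists. The 8 genes of early B cell development summed to 22.8 CPM (naive), 2.86 (Th0), 32.6 (Th17) and 10.7 (Treg). Among them Rag2 and Igll1 had 0 counts in all 4 libraries, and Vpreb1 had 1 to 5 counts. A count of 0 allows up to 0.229 to 0.343 CPM (3 counts). Dntt and Cd93 of that list stood at 2.29 to 7.39 CPM and 0.114 to 24.8 CPM, and Cd93 is also expressed by other cells. The 6 germinal centre genes summed to 27.4 CPM (naive), 56.2 (Th0), 58.4 (Th17) and 62.8 (Treg), while Gcsam of that list had 87 counts in naive and 0 in the cultured libraries. The 8 plasma cell genes summed to 265 CPM (naive), 123 (Th0), 310 (Th17) and 345 (Treg), and they did not move together. Jchain, which joins secreted immunoglobulin chains, had 89.9 CPM in naive and 13, 0 and 2 counts in Th0, Th17 and Treg. Xbp1, a factor of the secretory programme that other cells also express, had 130.01 CPM (naive), 79.0 (Th0), 281 (Th17) and 326 (Treg), and Sdc1 3.67, 4.24, 12.1 and 10.2 CPM. Mzb1, which chaperones immunoglobulin in plasma and marginal zone B cells, had 20.3, 26.0, 7.24 and 2.62 CPM in the naive, Th0, Th17 and Treg libraries.

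Markers of most other cell types moved with the 9 genes between naive and the cultured libraries, and their part in the result was not tested. The 10 CD8 T and NK cell markers went otherwise, with 94.3%, 129% and 172% of their naive sum in Th0, Th17 and Treg. Gzma gave 2107 of the 3261 reads of that list in Treg. The 10 macrophage and monocyte markers summed to 4585 CPM in naive and to 33.9, 35.1 and 50.2 CPM in Th0, Th17 and Treg. All 10 were called lower in each, where 27.2%, 17.7% and 16.9% of all tested genes were called lower. The neutrophil list, of 8 genes, came to 1449 CPM in naive and 1.83, 10.6 and 5.41 CPM in the cultured libraries. Of its naive sum, the macrophage list held 0.739% in Th0 (0.657 to 0.829), 0.765% in Th17 (0.696 to 0.838) and 1.10% in the Treg library (1.01 to 1.19), and the neutrophil list 0.126% to 0.731%. The 9 B cell genes held 10.2%, 9.58% and 2.46%, which was above both lists in all 3 libraries. The 8 conventional dendritic cell markers held 10.1% in Th0 (8.90 to 11.3), 19.3% in Th17 (17.9 to 20.8) and 26.9% in Treg (25.1 to 28.9), which was above the 9 genes in Th17 and Treg. These 8 did not move together, since 6 were called lower and 2 higher than naive in both Th17 and Treg. Over all tested genes, 15.5% and 14.9% were called higher there. In Treg, Ccl22, Batf3 and Itgax gave 491, 196 and 154 of the 996 reads of the list, and Xcr1 and Cd209a gave 0. The macrophage list was highest in Treg among the cultured libraries, where the 9 genes were lowest. The 14 T cell identity genes summed to 4986 to 5534 CPM in the 4 libraries.

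Some of the 9 genes are also known from other cells, whose markers were read beside them. Blk is expressed in plasmacytoid dendritic cells, and their 6 markers held 55.2% of the naive sum in Th0, 57.5% in Th17 and 60.4% in Treg. Siglech, Ccr9 and Klk1 of that list had 0 counts in the cultured libraries, and Tcf4, Runx2 and Pacsin1, at 15.9 to 69.6 CPM there, made up the sum. Cells of the gamma delta T lineage can express Blk as well, and their 6 markers summed to 25.1, 5.27, 7.54 and 11.9 CPM in the naive, Th0, Th17 and Treg libraries, so that among the cultured libraries they were highest in Treg. Follicular dendritic cells carry Cr2, and their 5 markers held 75.4%, 71.0% and 65.2% of the naive sum in Th0, Th17 and Treg. Mfge8 of that list had 16.8 CPM in naive and 26.7 to 29.9 CPM in the cultured libraries, where Cxcl13 and Madcam1, with 31 and 3 counts in naive, had 0. Stromal cells can express Ebf1, and the 8 stromal markers held 28.4%, 34.7% and 26.1% of the naive sum in Th0, Th17 and Treg. Pecam1 alone gave 420 of the 437 reads of that list in Th0, 767 of 804 in Th17 and 495 of 510 in Treg. Of the other markers, Pdgfrb had 15 counts in naive and 0, 25 and 2 in the cultured libraries, and Pdgfra and Dcn had at most 4 counts in any library. The part of these cells in the levels of Blk, Cr2 and Ebf1 was not tested. Class II genes, which B cells share with dendritic cells and macrophages, summed to 5698, 565, 269 and 249 CPM. Their 10 log2 ratios of Th17 over Treg ran from -0.47 to 0.85. None was called, where 1.91% of all tested genes were called higher and 1.24% lower, so nothing is read from that count.

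**Figure D5:**
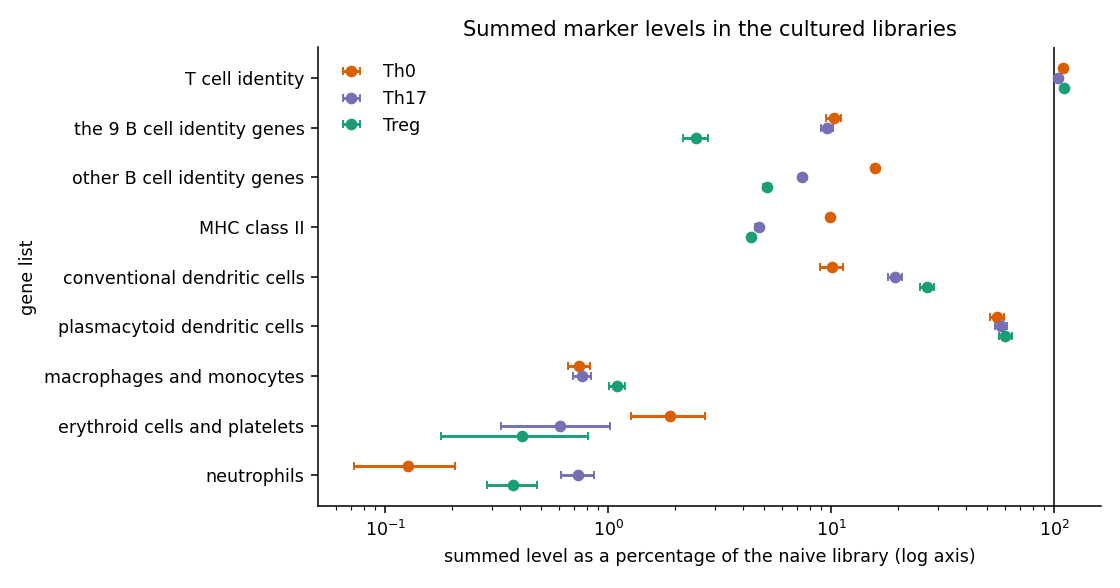
Summed level of each marker list in Th0, Th17 and Treg as a percentage of the naive library (log axis, line at 100%), with 95% counting intervals. The 9 B cell identity genes lie at 10.2%, 9.58% and 2.46%, below the T cell identity list near 100% and above the macrophage and neutrophil lists, which lie at or under 1.10%.

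The genes whose pattern over the 4 libraries was most like that of the 9 were sought among 10013 genes with at least 10 CPM in 1 library, by the root mean square difference between centred log2(CPM + 1) profiles. The 10 nearest were Lrrk2, Bcar3, Dok3, Ly86, Blnk, Bcl11a, Bank1, Mef2c, Napsa and Zfp36, at differences of 0.279 to 0.393. Lrrk2 stood at 100.1 CPM in the naive library, and at 14.5 in Th0, 14.7 in Th17 and 4.24 in the Treg library. Of the 9 genes themselves, Cd79a lay nearest to their mean profile, at 0.165, and Ms4a1 farthest, at 0.941, followed by Ebf1 at 0.734. With 4 libraries such a likeness is a description only.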

How the data were processed

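RNA from 4 mouse CD4+ T cell libraries was sequenced on an Illumina HiSeq platform, per the labels' protocols. The submitters' processing notes name Bowtie2, RSEM, the builds GRCm38.p6 and mm10, with no version of a tool. The authors deposited whole-number counts per gene, not normalized, and FPKM by the authors, which equalled counts divided by gene length and table total for 8988 of 8988 genes checked (tolerance 0.1%). Neither strandedness nor the annotation is stated in the labels, so antisense reads could not be told apart.

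The members and gene lists were chosen with earlier results of these data known. TMM factors (edgeR 4.0.16, R 4.3.3) came from genes with at least 10 counts in 1 library and lay between 0.850 (Th0) and 1.08 (Treg). With 1 library per group no test was made. Calls used a pseudocount of 1 CPM, and folds none. Single levels carry exact Poisson, ratios exact conditional and shares exact binomial (Clopper-Pearson) intervals. By the rule for named genes, the text names the 9 genes, genes of the B lineage lists, the 10 nearest profiles and Foxp3, Il17a and Cd4. Markers of other cells were named, beyond that rule, where they were at or near 0 or gave much of a sum, after their values were seen. No other gene had a near-identical copy of a member apart from the overlapping antisense genes given (at least 300 nt at 95% identity, minimap2). Alternatives were scaling to library totals, by upper quartile or by DESeq2 1.42.0 size factors, pseudocounts, count filters, FPKM and thinning. Intervals were computed with scipy 1.17.1 in Python 3.11.15, and plots drawn with matplotlib 3.10.9.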

Additional observations from a re-analysis of the deposited data

How the results depend on the processing

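Every one of the 9 calls against naive held under all alternatives run in the 3 comparisons. For Th17 over Th0 the 2 calls became 0 with a pseudocount of 5 CPM and 1 with at least 50 counts required. Of the 8 calls for Treg over Th0, 4 were left with a pseudocount of 5 CPM and 5 with 50 counts. Of the 8 for Th17 over Treg, 3 were left with a pseudocount of 5 CPM. A larger pseudocount by construction shrinks the ratios of low levels, and a stricter filter tests fewer genes. Fcrla for Th17 over Treg had a log2 ratio of 0.96 when thinned, below the 2-fold rule. Pax5 for Treg over Th0 had a log2 ratio of -0.72 when scaled to library totals and -0.88 by upper quartile, and Ebf1 -0.89 with library totals. No called log2 ratio changed sign. Scaling to library totals moved the median log2 ratio over all genes by 0.31 (Treg over Th0), 0.28 (Th17 over Th0) and -0.24 (Th0 over naive), and the share of calls that were higher from 62.7% to 81.8%, from 61.9% to 79.3% and from 40.5% to 29.6%. By upper quartile these shares were 72.5% and 71.2% for Treg and Th17 over Th0. The summed level was 899.6 CPM in naive and 76.1 CPM in Th0 with library totals, and 83.0 CPM in Th0 with upper quartile scaling. Without the gene with the most reads it was 709 CPM (naive), 68.0 (Th0), 64.3 (Th17) and 16.5 (Treg). By FPKM, which divides by gene length, the Pax5 share was 5.79%, 2.82%, 8.20% and 5.38%, and the Ms4a1 share 6.34%, 2.09% and 0.527% in naive, Th0 and Th17. No paired analysis was possible because each group has 1 library, and leaving out a library would leave its group empty. Depth limits Cr2 and Fcrla in Treg, at 3 reads each.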
